A study of Mus musculus with 2 samples.

Results

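The DNA replication machinery was followed as 50 genes, chosen by what their products do in copying DNA and found by symbol among the 24421 gene symbols of the deposited files. They encode the origin recognition complex and licensing factors, the MCM helicase, the GINS complex and Cdc45, the kinase that fires origins, the replicative polymerases, the clamp and its loader, the single-strand binding protein RPA, and factors for flap removal, ligation, chromatin assembly and fork protection. All 50 were above 0 in both libraries. RNA came from granulocyte-monocyte progenitors (GMPs), the BM precursors of granulocytes and monocytes, purified by flow cytometry from female mice of an F1 semi-syngeneic (H-2b/d) background. One group of mice bore no tumor (NTB-GMP), and the other had 4T1, a mammary carcinoma line of the mouse, implanted orthotopically (4T1-GMP). The labels give neither the age of the mice nor the number behind each library, whereas the study's methods describe BALB/c hosts for 4T1 implants. Each group had 1 library, so no test of the conditions was possible and no difference carries a replicate error.

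Before a cell divides, the origin recognition complex, with Cdc6 and Cdt1, loads pairs of MCM helicase rings onto DNA in G1, a step called licensing. At the start of S phase the kinase Cdc7-Dbf4 and cyclin-dependent kinases recruit Cdc45 and GINS, which turn each ring into an active helicase, and primase with polymerase alpha lays down the primers that polymerases delta and epsilon extend. Transcription of many of these genes is driven by E2F factors at the G1 to S transition, and granulocyte progenitors divide rapidly before their granulocytic descendants leave the cell cycle.

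Levels were reads scaled to gene length and library size (RPKM), a scale on which genes of different length can be compared. The effective library sizes, the totals that the RPKM imply, were 10180365 for NTB-GMP and 30016263 for 4T1-GMP, or 2.95 times as large. These sizes may differ from read totals. Recovered reads, which are lower bounds, summed to 9486697 (NTB-GMP) and 26353075 (4T1-GMP). Rn45s, the ribosomal RNA precursor, took up 17.0% of the effective size of NTB-GMP and 6.98% of that of 4T1-GMP. Leaving it out of both would shift the log2 ratio of each gene by -0.16. The primary granule genes Mpo, Elane, Prtn3 and Ctsg, which mark GMPs, spanned 1388 to 5163 RPKM (NTB) and 2935 to 5625 RPKM (4T1). Among all genes that averaged 1 RPKM or more over both libraries, 54.7% were higher in 4T1-GMP. Of the 12 genes listed as GMP and primary granule markers, 8 were higher in 4T1-GMP and 4 lower. The 4 lower were Cd34 (154 and 59.4 RPKM), Kit (78.5 and 49.1 RPKM), Fcgr3 (53.1 and 28.6 RPKM) and Cebpa (45.6 and 35.5 RPKM). Markers of other cells also moved between the libraries. The 14 late neutrophil granule and surface genes summed to 518 RPKM (NTB) and 4085 RPKM (4T1), with all 14 higher and none at 0. The 14 monocyte and dendritic genes summed to 234 and 86.8 RPKM, and the 10 stem and early progenitor genes to 126 and 69.9 RPKM. The 11 erythroid and megakaryocyte genes summed to 33.6 and 9.49 RPKM. Of those averaging 1 RPKM or more, 10 of 11 monocyte and dendritic, 4 of 5 stem and 5 of 5 erythroid genes were lower. The exceptions, F13a1 (49.1 and 49.6 RPKM) and Hoxa9 (10.1 and 10.5 RPKM), were slightly higher. Of the defining markers, Hbb-bt and Hba-a1 were listed at 0 in both libraries and Ly6a, which encodes Sca-1, at 0 (NTB) and 0.27 RPKM (4T1). The 12 lymphoid genes summed to 16.5 and 13.1 RPKM, of which Cd79b gave 14.7 and 12.4 RPKM, and Cd3g was at 0 in both. The part of these shifts in the results below was not tested. In bulk RNA, a change in the share of cells in S phase and a change in RNA per cell cannot be told apart.

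The question was whether the replication genes differed between GMPs of tumor-bearing and NTB mice. Most were slightly higher in 4T1-GMP, few by much. Of the 50, 37 (74%) had a log2 ratio of 4T1-GMP over NTB-GMP above 0, against 54.7% of the 10378 genes tested, which had to average 1 RPKM or more over both libraries. The median log2 ratio, taken on the log2(RPKM + 0.1) scale, was 0.21 for the replication genes and 0.05 for all genes tested, with interquartile ranges of -0.00 to 0.35 and -0.26 to 0.32. A gene was called higher when it was at least 25% higher in 4T1-GMP on this scale, and lower when it was at least 20% lower, the same step down. Called higher were 14 of the 50 (28%), near the 25.2% of all genes tested. Called lower was 1 of the 50, Pola1, beside 21.7% of all genes. At 1.5-fold, 2 were higher (Pole2 and Fen1) and 0 lower, beside 9.8% and 11.6% of all genes. The log2 ratios had an SD of 0.26 across the 50 genes and 0.72 across all genes tested. Among the 7982 genes that averaged 5 RPKM or more, a level that all 50 reached, 59.9% were higher, 26.1% called higher and 15.4% called lower.

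The split depended on the scale. When library sizes were taken without Rn45s, 29 of the 50 (58%) were higher against 39.2% of all genes, 3 were called higher against 14.3%, and 6 were called lower against 31.8%. Quantile normalization gave 27 of the 50 higher against 50.5% of all genes, 7 called higher against 21.3% and 4 called lower against 21.1%. Centring on the median of all genes gave 34 higher against 50%, 11 called higher against 21.3% and 3 called lower against 24.5%. The 3 genes called higher on each of these scales were Pole2, Fen1 and Gins1, and Pola1 was called lower on each. The interval beside a gene is a 95% Clopper-Pearson interval, computed from its recovered reads. Such intervals compare these libraries and cover counting error only. By these intervals, 29 of the 50 log2 ratios lay above 0, 8 below 0, and 13 included 0. Against the median of all genes tested (0.05), 28 intervals lay above and 11 below. Intervals were not counted over all genes tested, of which 54.7% had a log2 ratio above 0. Reads per gene ran from 21 to 3573 in NTB-GMP and from 68 to 11675 in 4T1-GMP, so counting error was small for most.

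**Figure D1:**
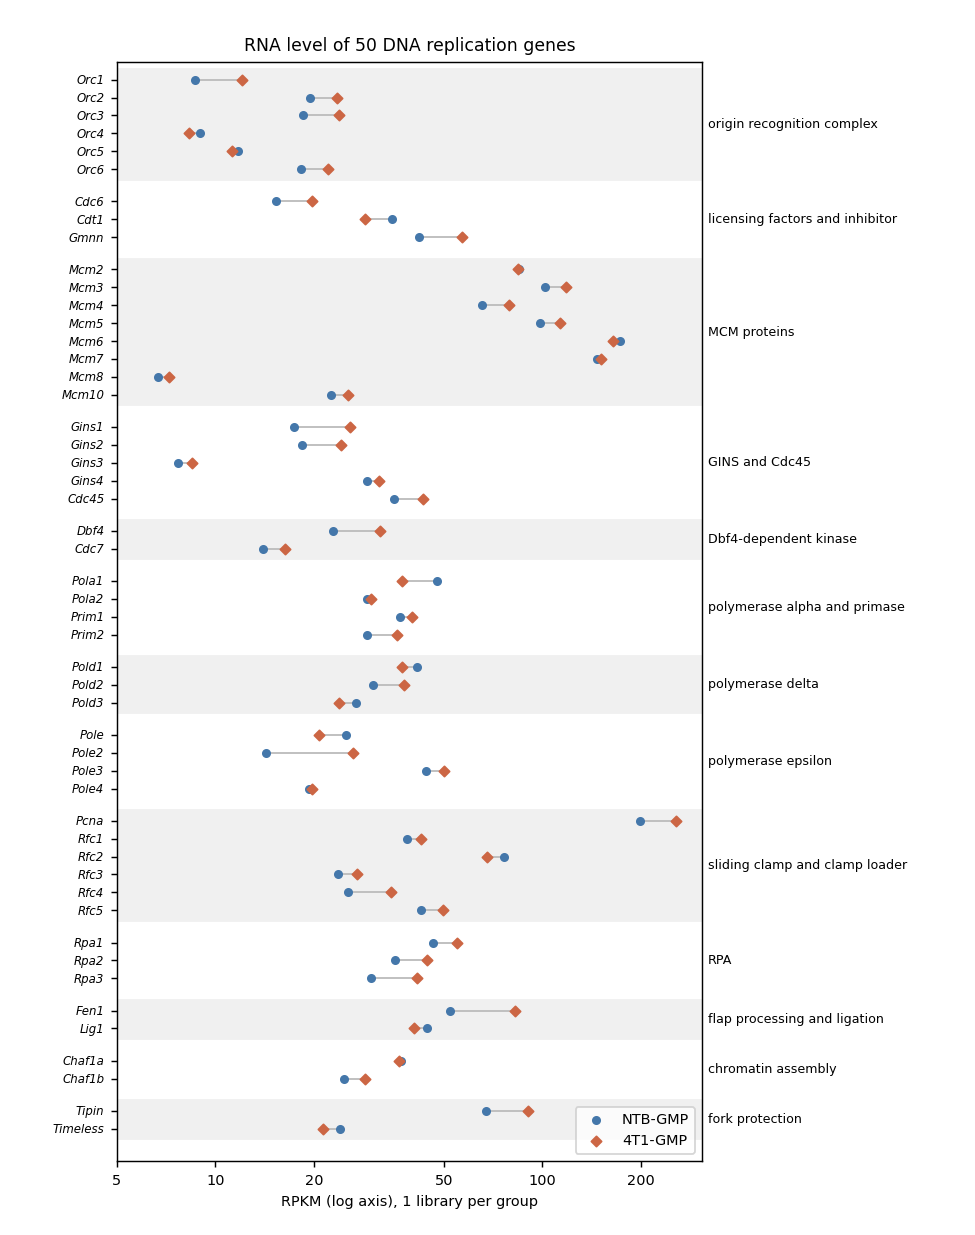
RPKM of the 50 replication genes in NTB-GMP (circles) and 4T1-GMP (diamonds) on a log axis, grouped by complex, with 1 library per group and therefore no error bars. Pcna, Mcm6 and Mcm7 lie highest and Mcm8 lowest. The points of most genes lie close together, and those of Pole2 (14.3 and 26.3 RPKM) and Fen1 (52.0 and 82.4 RPKM) lie furthest apart in ratio.

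Letters of the E2F motif, which did not enter the choice of genes, stood in some of their promoters. Promoter windows of 250 bases before to 50 bases after the start site, from RefSeq on GRCm38.p6, were found for 41 of the 50 genes and searched on both strands for 4 spellings of the E2F motif, TTTCCCGC, TTTCGCGC, TTTGCCGC and TTTGGCGC. Such letters stood in the windows of 17 of the 41 (41.5%), against 5.07% of the 7988 genes tested that have a window and 2.61% of all 27025 genes with one. Of 23 matches, 16 began within 50 bases of the start site, and 5 genes had more than 1. The other 24 genes with a window held none of the spellings. The windows of the replication genes had a median GC content of 62.1%, near the 60.8% of all genes tested. Among other tested genes with a GC content at or above the lower quartile of the replication genes, 5.58% held the letters. For CCAAT, the NF-Y motif, the share was 56.1% against 43.4% of genes tested, and for TTTGAA, the CHR motif of many mitotic genes, 17.1% against 14.2%. Of the 36 other replication factors with a window, 10 (27.8%) held the E2F letters and 61.1% CCAAT. Of the 34 mitosis genes with a window, 8.82% held the E2F letters, 73.5% CCAAT and 76.5% the CHR letters. The spellings are letters and not sites, and none of these shares was tested.

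Shown are 80 bases of 6 of these promoters, 5′ to 3′ on the strand of the gene, with the E2F letters of either strand in capitals. They are the gene with the largest difference in its group, among genes whose window holds the letters, for the 6 groups with the largest such differences.
Pole2 (chr12:69228161-69228240, minus strand): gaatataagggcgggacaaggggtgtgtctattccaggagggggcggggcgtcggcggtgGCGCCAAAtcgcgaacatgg
Orc1 (chr4:108579391-108579470, plus strand): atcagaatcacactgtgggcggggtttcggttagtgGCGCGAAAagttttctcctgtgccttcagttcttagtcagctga
Cdc6 (chr11:98907977-98908056, plus strand): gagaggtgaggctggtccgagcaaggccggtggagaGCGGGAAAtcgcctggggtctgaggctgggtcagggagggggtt
Pola1 (chrX:93632250-93632329, minus strand): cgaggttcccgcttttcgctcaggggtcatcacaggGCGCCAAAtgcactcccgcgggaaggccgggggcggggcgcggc
Mcm3 (chr1:20820283-20820362, minus strand): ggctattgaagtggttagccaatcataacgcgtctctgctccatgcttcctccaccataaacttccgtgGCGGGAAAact
Rfc3 (chr5:151651179-151651258, minus strand): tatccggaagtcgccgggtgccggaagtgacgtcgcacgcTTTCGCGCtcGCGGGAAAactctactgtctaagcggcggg

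Genes with the letters lay on both sides of 0 in their log2 ratio. Pole2 and Pola1 carry the same spelling, TTTGGCGC, and lay at opposite ends of the 50, with log2 ratios of 0.87 and -0.35. The 17 genes with the letters had a median of 0.10 and 11 were higher, and for the 24 without them the median was 0.23 and 19 were higher. Among other tested genes, the medians were 0.08 for the 388 with the letters and 0.05 for the 7559 without.

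**Figure D2:**
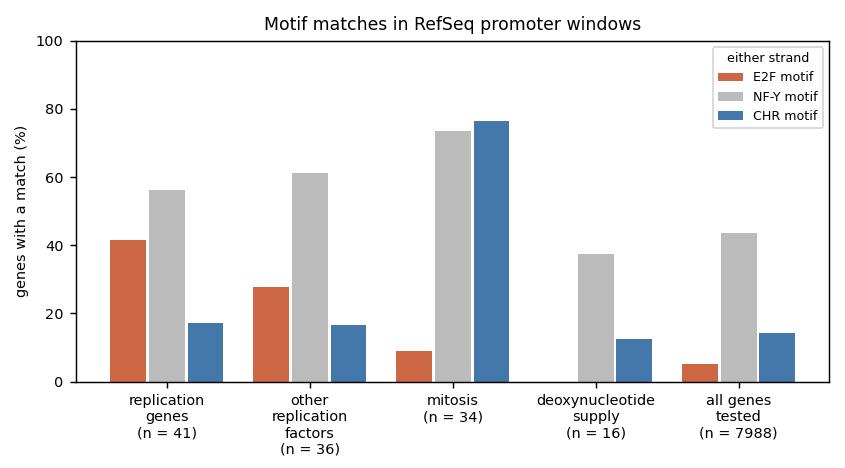
Share of genes (%) whose RefSeq promoter window holds the E2F, NF-Y or CHR motif on either strand, for the replication genes, 3 other lists and all genes tested, with the number of genes that have a window under each. The E2F bar is highest for the replication genes (41.5%), and the CHR bar is highest for mitosis genes (76.5%).

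The origin recognition complex binds origins and starts the loading of the helicase. Its RNAs were among the least abundant of the machinery, from 8.67 to 19.5 RPKM (NTB) and from 8.31 to 24.0 RPKM (4T1). Orc1, the subunit that is degraded and remade in each cycle, had 8.67 RPKM from 133 reads (NTB) and 12.1 RPKM from 547 reads (4T1), a log2 ratio of 0.48 (interval 0.20 to 0.76). Orc3, a core subunit, had 18.5 and 24.0 RPKM on 1188 and 4541 reads (log2 ratio 0.37, interval 0.28 to 0.47). These 2 subunits were called higher. Orc2 was at 19.5 and 23.6 RPKM and Orc6 at 18.2 and 22.0 RPKM, both with a log2 ratio of 0.27. For Orc4 (8.96 and 8.31 RPKM) and Orc5 (11.7 and 11.2 RPKM) the intervals included 0. The median of the 6 subunits was 0.27, or 0.11 without Rn45s.

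The licensing factors and their inhibitor did not move as a block. Cdc6, the ATPase that joins the origin recognition complex to load the helicase, had 15.4 RPKM from 245 reads (NTB) and 19.8 RPKM from 929 reads (4T1) (log2 ratio 0.36, interval 0.16 to 0.57). Cdt1, which brings the MCM ring to the origin, was lower, at 34.7 and 28.7 RPKM (log2 ratio -0.27, interval -0.39 to -0.15). Gmnn encodes geminin, which binds Cdt1 and blocks licensing again after S phase has begun. It was higher, at 41.8 and 56.8 RPKM on 416 and 1666 reads (log2 ratio 0.44, interval 0.29 to 0.60). In both libraries the order of levels was Gmnn, Cdt1, Cdc6, and the ratio intervals of Gmnn and Cdt1 did not overlap. Without Rn45s, Cdt1 was called lower (-0.43) and Gmnn was no longer called higher (0.28).

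The MCM ring differed little between the libraries. MCM2 to MCM7 form the ring that unwinds DNA, and none of their 6 genes was called in either direction. Their RPKM in NTB-GMP and 4T1-GMP were 84.9 and 84.2 for Mcm2, 102 and 118 for Mcm3, and 65.6 and 79.0 for Mcm4. For the others they were 98.1 and 113 (Mcm5), 173 and 165 (Mcm6) and 146 and 151 (Mcm7). The RNAs of the 6 subunits, which the ring holds in equal number, lay within 2.64-fold of each other in NTB-GMP and 2.09-fold in 4T1-GMP, with Mcm6 highest and Mcm4 lowest in both. Log2 ratios ran from -0.07 (Mcm6) to 0.27 (Mcm4), with intervals above 0 for Mcm3, Mcm4 and Mcm5 and including 0 for Mcm2, Mcm6 and Mcm7. Their median was 0.12, or -0.04 without Rn45s, beside 0.05 and -0.11 for all genes tested. Mcm8, a helicase of recombination repair, was the least abundant of the 50 in both libraries (6.68 and 7.19 RPKM). Mcm10, which helps to activate the loaded helicase, was at 22.6 and 25.4 RPKM, a log2 ratio of 0.16 (interval 0.06 to 0.27).

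GINS and Cdc45 complete the active helicase. Gins1 was 1 of the 3 genes called higher on each scale, with 17.4 RPKM from 205 reads (NTB) and 25.8 RPKM from 898 reads (4T1), a log2 ratio of 0.57 (interval 0.35 to 0.80). Gins2 had 18.4 and 24.2 RPKM on 97 and 377 reads (log2 ratio 0.40, interval 0.07 to 0.74). Gins3 (7.70 and 8.45 RPKM) and Gins4 (29.2 and 31.6 RPKM) had intervals that included 0, that of Gins3 being the widest of the 50 as computed (-0.59 to 0.92), on 21 and 68 recovered reads. The length recovered for Gins3 was 268 bases beside an annotated transcript of 2519, so its true reads may be several times more and its interval narrower. Cdc45, which travels with the helicase, was at 35.2 and 43.1 RPKM (log2 ratio 0.29, interval 0.18 to 0.41). In the annotation, 67.3% of the exonic bases of Gins2 overlap Gse1 on the other strand, and Gse1 was lower in 4T1-GMP (log2 ratio -0.95), so the value of Gins2 is uncertain if reads were counted without strand.

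Dbf4 and Cdc7 encode the regulatory and catalytic subunits of the kinase that phosphorylates the MCM ring at origins. Dbf4 was at 22.9 RPKM from 285 reads (NTB) and 31.8 RPKM from 1167 reads (4T1) (log2 ratio 0.47, interval 0.29 to 0.67), and Cdc7 was at 13.97 and 16.32 RPKM (log2 ratio 0.22, interval 0.07 to 0.38). Both were higher in 4T1-GMP, and Dbf4 alone of the pair was called.

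Within the polymerases, the 3 catalytic polymerase subunits were lower in 4T1-GMP, and 7 of the other 8 polymerase and primase genes had a log2 ratio above 0 on the deposited scale. Pola1, the catalytic subunit of polymerase alpha, had 47.5 RPKM from 2588 reads (NTB) and 37.3 RPKM from 5993 reads (4T1), a log2 ratio of -0.35 (interval -0.42 to -0.28). Pole, the catalytic subunit of polymerase epsilon, which copies the leading strand, had 25.1 and 20.8 RPKM (log2 ratio -0.27, interval -0.35 to -0.19). Pold1, the catalytic subunit of the lagging-strand polymerase delta, had 41.4 and 37.3 RPKM (log2 ratio -0.15, interval -0.24 to -0.06). The 3 intervals lay below 0, and Pola1 alone of the 50 was called lower. The second subunit of polymerase epsilon, Pole2, stood furthest the other way, with 14.3 RPKM from 247 reads (NTB) and 26.3 RPKM from 1339 reads (4T1). Its log2 ratio of 0.87 (interval 0.68 to 1.08) was the highest of the 50, above that of 95.9% of all genes tested. Pole2 lies on chromosome 12 of GRCm38, from 69201773 to 69228195, and Pola1 on chromosome X, from 93304767 to 93632155.

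Of the accessory polymerase subunits, Pold2 had 30.3 and 37.7 RPKM (log2 ratio 0.32), just short of the call that Rpa2 just reached. Pold3 was lower, at 26.96 and 23.94 RPKM (log2 ratio -0.17, interval -0.29 to -0.05). The histone-fold subunits Pole3 (43.9 and 50.1 RPKM) and Pole4 (19.3 and 19.8 RPKM) had intervals that included 0, as did Pola2 (29.0 and 29.8 RPKM) and the primase catalytic subunit Prim1 (36.7 and 39.9 RPKM). Prim2, the large primase subunit, was at 29.03 and 36.03 RPKM (log2 ratio 0.31, interval 0.18 to 0.45). Over the 11 polymerase and primase genes, 7 were higher, 1 was called higher and 1 called lower, and the median log2 ratio was 0.04, beside 0.05 for all genes tested. Without Rn45s, which lowers every ratio by a common shift, 4 of the 11 were higher, 1 called higher and 3 called lower. Their median was then -0.12, beside -0.11 for all genes tested, of which 39.2% were higher, 14.3% called higher and 31.8% called lower. Pola2, Prim1 and Pole4 were below 0 on that scale.

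Pcna, the sliding clamp that tethers the polymerases, was the most abundant RNA of the 50, with 200 RPKM from 2561 reads (NTB) and 257 RPKM from 9705 reads (4T1). Its log2 ratio was 0.36 (interval 0.30 to 0.43). The clamp loader opens that ring and places it on DNA. Rfc4 was at 25.4 and 34.4 RPKM on 314 and 1257 reads (log2 ratio 0.44, interval 0.26 to 0.62), Rfc5 at 42.4 and 49.7 RPKM (0.23) and Rfc1, the large subunit, at 38.6 and 42.6 RPKM (0.14). Rfc3 was at 23.8 and 27.1 RPKM (0.19). Rfc2 alone of the 5 was lower, at 76.5 and 67.5 RPKM (log2 ratio -0.18, interval -0.32 to -0.04). Lat2, which overlaps 15.1% of the exonic bases of Rfc2 on the other strand, was lower as well (log2 ratio -1.52).

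RPA coats single-stranded DNA at the fork, and its 3 genes were higher in 4T1-GMP on both scales. Rpa1 was at 46.33 and 55.01 RPKM (log2 ratio 0.25, interval 0.16 to 0.33) and Rpa2 at 35.3 and 44.3 RPKM on 641 and 2368 reads (0.32, interval 0.20 to 0.45). Rpa3, the smallest subunit, was at 29.9 and 41.3 RPKM on 194 and 791 reads (0.47, interval 0.24 to 0.70). In level the order was Rpa1, Rpa2, Rpa3 in each library.

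The pair that finishes Okazaki fragments diverged. Fen1, the nuclease that cuts the flap, had 52.0 RPKM from 1177 reads (NTB) and 82.4 RPKM from 5498 reads (4T1), a log2 ratio of 0.66 (interval 0.57 to 0.76), above that of 92.4% of genes tested. Lig1, the ligase that seals the nick, had 44.5 and 40.4 RPKM (log2 ratio -0.14, interval -0.22 to -0.05). Fen1 lies on chromosome 19, from 10199132 to 10204169, and 84.2% of its annotated exonic bases overlap Tmem258 and Gm10143 on the other strand. Tmem258 was also higher in 4T1-GMP (98.8 and 135 RPKM, log2 ratio 0.45), so that reads of the pair cannot be told apart unless strand was used.

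Chromatin assembly factor 1 places histones behind the fork. Its subunits were at 36.9 and 36.5 RPKM for Chaf1a (log2 ratio -0.01) and 24.7 and 28.7 RPKM for Chaf1b (0.21, interval 0.07 to 0.37). Timeless and Tipin form the fork protection complex, and their RNAs moved apart. Tipin had 67.5 RPKM from 832 reads (NTB) and 90.3 RPKM from 3282 reads (4T1) (log2 ratio 0.42, interval 0.31 to 0.53), whereas Timeless had 24.1 and 21.3 RPKM (log2 ratio -0.18, interval -0.28 to -0.08). In the annotation, 52.5% of the exonic bases of Chaf1a overlap Ubxn6 on the other strand (Ubxn6 log2 ratio 0.06).

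**Figure D3:**
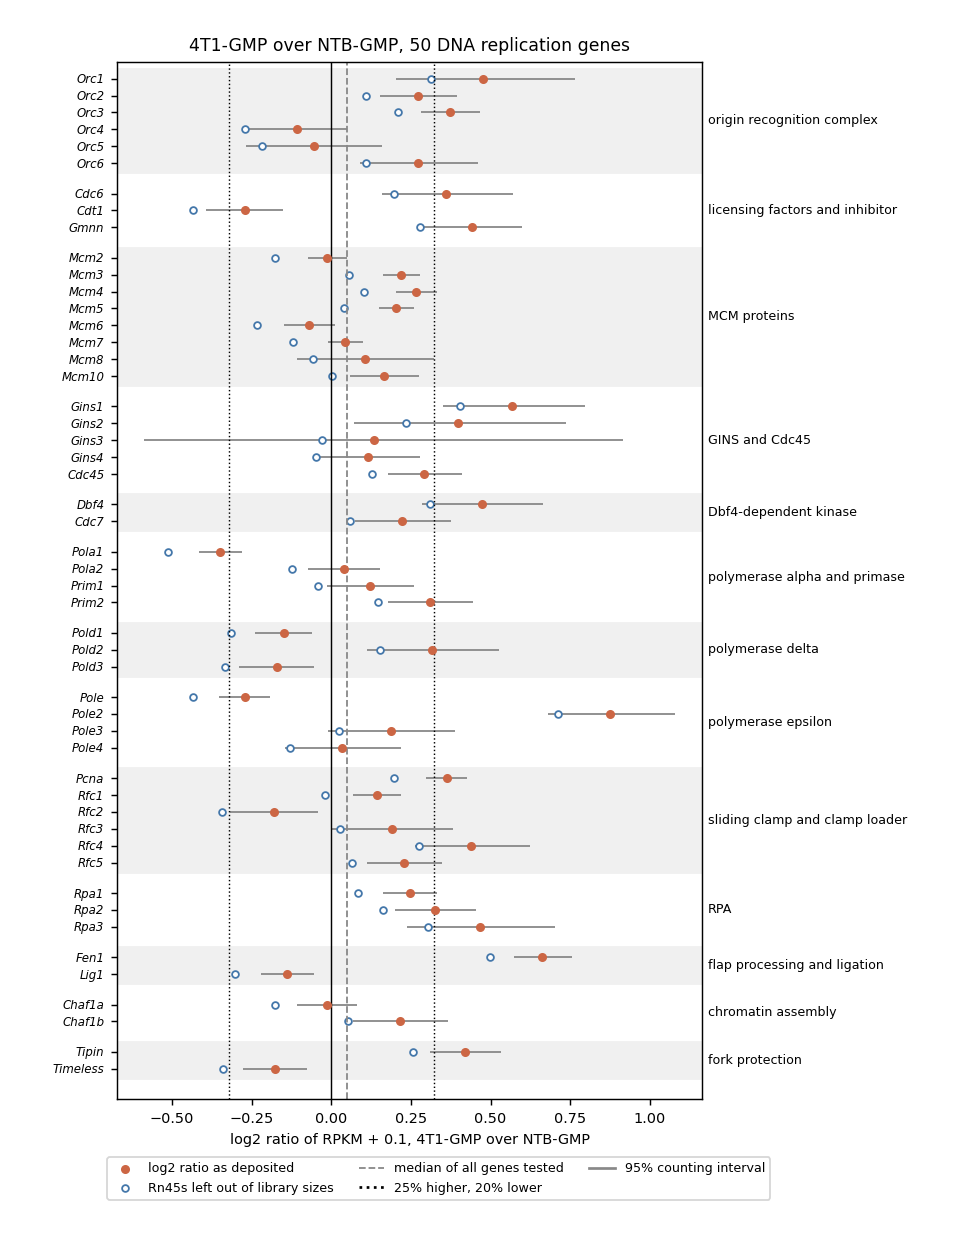
Log2 ratio of 4T1-GMP over NTB-GMP for each of the 50 genes, grouped by complex. Filled points are ratios of the deposited RPKM with 95% counting intervals, open points the ratios without Rn45s, the dashed line the median of all genes tested (0.05) and dotted lines the calls of 25% higher and 20% lower. Of the filled points, 14 lie right of the upper dotted line and 1, Pola1, left of the lower one. Pole2 (0.87) and Fen1 (0.66) lie furthest right.

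The subunits that were lower tended to be those with long transcripts, a split made after the values were seen. With genes sorted by their longest protein-coding transcript in GENCODE M21, all 17 replication genes under 2000 bases were higher in 4T1-GMP (median log2 ratio 0.32), as were 16 of the 22 from 2000 to under 4000 bases (0.21) and 4 of the 11 of 4000 bases or more (-0.07). Called higher were 8 (47.1%), 5 (22.7%) and 1 (9.09%) of these, beside 37.3%, 26.8% and 15.6% of all genes tested in the same classes. Genes overall went the same way, with medians of 0.20, 0.08 and -0.08 in classes of 2493, 3965 and 3236 tested genes, and 70.3%, 58.1% and 41.9% higher. Across the 50 genes, log2 length and log2 ratio had a Pearson r of -0.53 and a Spearman rho of -0.51, against -0.20 and -0.26 over 9694 tested genes. With the lengths recovered from the RPKM themselves, for the 42 genes where these reached at least 0.5 of the annotated transcript, r was -0.57. All points come from the same pair of libraries, and the part of length in the results was not tested.

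**Figure D4:**
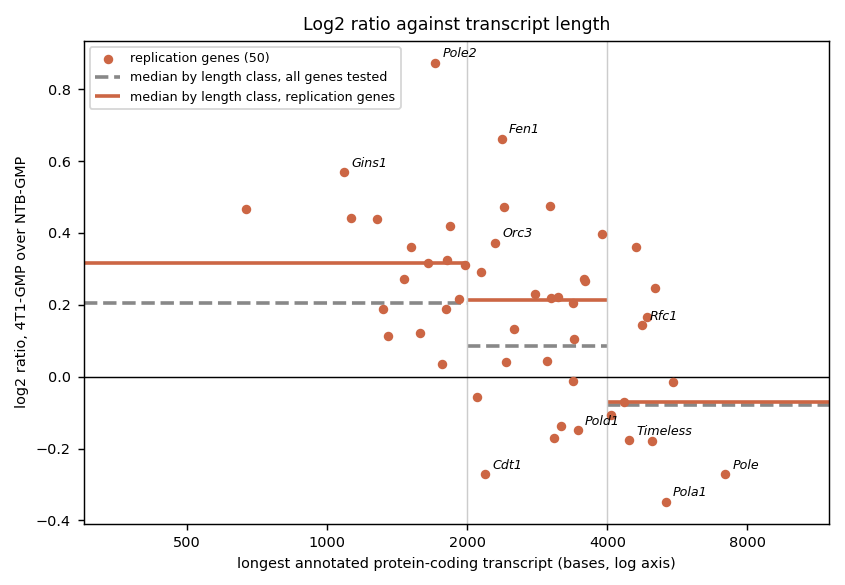
Log2 ratio of 4T1-GMP over NTB-GMP against the longest annotated protein-coding transcript (bases, log axis) for the 50 replication genes, with medians by length class for these genes (solid) and all genes tested (dashed). Both medians step down from the short class (0.32 and 0.20) to the long class (-0.07 and -0.08).

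For comparison with the lists that follow, 54.7% of all genes tested were higher in 4T1-GMP, 25.2% called higher and 21.7% called lower. Without Rn45s these shares were 39.2%, 14.3% and 31.8%. Of a list of 45 other replication factors, 27 (60%) were higher in 4T1-GMP, 7 were called higher (15.6%) and 4 called lower. Their median was 0.06, and without Rn45s 14 were higher, 1 called higher and 10 called lower. Furthest up was Asf1b, a histone chaperone that hands histones to the chromatin assembly factor, at 18.9 and 32.4 RPKM (log2 ratio 0.78). Its paralog Asf1a followed at 14.8 and 20.1 RPKM (0.44) and Donson, a factor of helicase assembly, at 4.02 and 5.35 RPKM (0.40). Furthest down were Mcm9, a partner of Mcm8, at 6.645 and 4.499 RPKM (-0.55), Ticrr, which takes part in origin firing, at 11.04 and 8.495 RPKM (-0.37), and Rnaseh1, which cuts RNA in hybrids with DNA, at 13.1 and 10.2 RPKM (-0.36). For the 40 mitosis genes the median was 0.20, 34 were higher, 14 were called higher (35%) and 2 called lower (Cenpf, -0.58, and Ncapd2, -0.33). Without Rn45s, 23 of the 40 were higher and 7 called higher. For the 18 genes of deoxynucleotide supply the median was 0.17, with 13 higher, 5 called higher and 2 called lower (Dguok, -0.47, and Samhd1, -0.34). Those called higher were led by Rrm2, the S-phase subunit of ribonucleotide reductase (56.6 and 145 RPKM, log2 ratio 1.36). The highest of the 50 replication genes, Pole2, was below Rrm2.

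The order of levels within the machinery was much the same in both libraries, with a Spearman rho of 0.95 across the 50 genes, given as a description. Their RPKM summed to 2132 (NTB) and 2408 (4T1). Pcna, Mcm6, Mcm7, Mcm3 and Mcm5 stood at the top and Mcm8, Gins3, Orc4, Orc5 and Orc1 at the bottom in each.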

How the data were processed

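Libraries of total RNA were analysed for 1 sample of GMPs per group. The authors deposited RPKM, with 1 value per gene symbol and library. Their processing notes name CASAVA 1.8.2, cutadapt 1.2.1, TopHat2 2.0.13, Picard 1.97, HTSeq 0.6.1 and the build mm10. Gene lengths and strand are not given in the sources used here. RPKM depend on those lengths, on which reads enter the library size, including Rn45s, and on any scaling of that size. If the size was already scaled between libraries, leaving out Rn45s could adjust it again, which was not tested.

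Whole reads and library sizes were recovered from the RPKM of 14833 symbols above 0. The recovery was tested on simulated data. It can return both counts of a gene too low by a common factor, so counts are lower bounds. Of the 50 genes, 8 had a recovered length under 0.5 of the annotated transcript. Such undercounts widen the intervals. Log2 ratios used a pseudocount of 0.1, which understates low genes, and a mean RPKM of at least 1. Genes at least 25% higher or 20% lower were called. With 1 library per group no test was run. PCR reads without molecular identifiers are not independent molecules, and the intervals, which leave this out, can be too narrow.

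The 50 genes, the lists and the fold were chosen with earlier results of these data known. All 50 genes are described by complex, with the 3 furthest up and down of the other replication factors. Called genes also had reads and intervals, and the interval is given for others where it bears on the direction. Promoters shown were those with the largest absolute log2 ratio per group among windows with E2F letters, for 6 groups. The length classes, the GC comparison and the overlap check were chosen after the values were seen. Alternatives were pseudocounts of 1 and 0.01, no filter or a mean RPKM of at least 5, and a fold of 1.5. Others were library sizes without Rn45s, quantile normalization and centring. The last, the divided-down setting, set aside genes under 3 reads after 4T1-GMP reads were divided down to the smaller library. It kept the values of the rest. Coordinates are of GENCODE M21 and RefSeq on GRCm38. Python 3.11.15, numpy 2.4.6, pandas 2.3.3 and scipy 1.17.1 were used.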

Additional observations from a re-analysis of the deposited data

How the results depend on the processing

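The median log2 ratio of the 50 genes, 0.21, was 0.21 under both other pseudocounts and 0.16 after centring. It could not change under the filters or the divided-down setting, since all 50 genes passed them. It was 0.047 without Rn45s and 0.063 under quantile normalization, against -0.11 and 0.00 for all genes tested. The number called higher, 14, was 3 without Rn45s, 7 under quantile normalization and 2 (Pole2 and Fen1) at 1.5-fold, where 9.8% of all genes were called; elsewhere it was 11 to 14. The number called lower, 1, was 6 without Rn45s (Pola1, Cdt1, Pole, Pold3, Rfc2 and Timeless), 4 under quantile normalization (21.1% of all genes), 3 after centring on the median of all genes (24.5%) and 0 at 1.5-fold, where 11.6% of all genes were called. Leaving out Rn45s lowers every ratio by a common shift. The cause of the quantile normalization values was not tested. Of 400 values of single genes under 8 alternatives, 57 moved by more than their counting error, 33 of them without Rn45s and 24 under quantile normalization. The other 343 moved by no more, but the filters and the divided-down setting left every value of a gene as it was by construction. As the shift without Rn45s was common to all genes, which 33 passed depended on the width of their intervals. Of the 400 values, 20 changed sign, none of them of a called gene. No paired analysis was possible because neither group held more than 1 library, which also leaves no replicate to omit. The recovered reads are lower bounds, for Gins3 and 7 others perhaps by several times, so genes were not ranked by how far depth limits them.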
